A study of Mus musculus with 81 samples.

Results

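The receptors of the TREM and CD300 families and the adaptor proteins that carry their signals were read in sorted mouse macrophages and their progenitors, with and without the transcription factor Irf8. The 9 genes were Trem1, Trem2, Trem3, Cd300a, Cd300lb, Cd300ld, Cd300lf, Tyrobp and Hcst, of 22180 genes with a probe of their own. They were chosen by name, and for each gene the brightest probe that carried its symbol alone was taken, which was the sole such probe in all 9 cases. All 9 passed the filter on low values that left 17076 genes tested. Messenger RNA was measured on Affymetrix arrays in 80 samples of 27 groups, and values are log2 signals, so that a difference of 1 is a change of 2-fold. The wild-type groups were E8 erythro-myeloid progenitors, the A1 and A2 progenitor populations of the E9.5 yolk sac, and adult Langerhans cells of the skin. The others were microglia, Kupffer cells, kidney F4/80high macrophages, liver CD11bhigh macrophages and kidney CD11bhigh macrophages, each at E14 and in adults. Adults were 6 weeks old. The same populations except the E8 progenitors were also taken from mice labelled Irf8 knockout, a label that does not limit the knockout to macrophages. The labels used here do not give the deleted part of the gene. Each group held 3 samples, except the 2 of wild-type kidney F4/80high macrophages at E14. The titles of the wild-type Langerhans cells name a GFP+ gate and those of the knockout do not, so that gate and genotype cannot be told apart there. The labels do not say that the samples of a group came from separate animals. The p-values thus measure the spread between samples within groups, pooled over all groups, which may be technical.

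TREM and CD300 receptors are immunoglobulin-like proteins on the surface of myeloid cells. Those that activate the cell have short tails and lend their signal to a partner in the membrane. Tyrobp, also called DAP12, carries an ITAM, the tyrosine motif that recruits the kinase Syk, and Hcst, also called DAP10, carries a motif that recruits phosphoinositide 3-kinase. Trem1 amplifies inflammatory responses of neutrophils and monocytes, Trem2 senses lipids and lipoproteins on microglia and other tissue macrophages, and Trem3 is a further DAP12 partner of the mouse. Cd300lb signals through DAP12, and Cd300ld pairs with the Fc receptor gamma chain. Cd300a and Cd300lf carry inhibitory ITIM motifs in their own tails. Irf8 binds DNA with ETS-family partners such as PU.1 and is needed for the normal development of monocytes and microglia.

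The identity of the populations was read from marker lists. Of the 10 macrophage markers, all were above the floor of 3.041 log2 units in every group but E8 progenitors (6), Langerhans cells (7 in wild type and 9 in the knockout) and knockout E14 liver CD11bhigh macrophages (9). The Kupffer markers of E14 Kupffer cells averaged 8.49 to 8.67 in wild type and 5.60 to 6.29 in the knockout, so the marker signal of that population was lower. Neutrophil markers (15 genes, averaged) moved with genotype most in 4 populations. They ran from 5.39 to 6.88 in wild-type and 9.88 to 10.19 in knockout adult liver CD11bhigh macrophages, from 3.54 to 4.80 and 7.54 to 8.37 in those of adult kidney, from 4.92 to 7.39 and 8.27 to 10.02 in those of E14 kidney, and from 3.50 to 6.61 and 8.17 to 8.59 in E14 microglia. In sorted bulk samples, fewer cells of a type and less RNA per cell cannot be told apart. Sex also moved with genotype in adult Kupffer cells, where Xist lay between 2.71 and 3.88 in wild type and between 9.52 and 9.99 in the knockout. In Langerhans cells the Y-linked Eif2s3y was at 1.31 to 2.68 in wild type and 4.87 to 7.57 in the knockout. The mean of the Irf8 probe was higher in the knockout in 4 of the 13 populations and lower in 9, by differences from -3.02 in E14 liver CD11bhigh macrophages to 0.47 in adult microglia, where it read 10.30 ± 0.33 against 9.83 ± 0.13 (SD, n = 3 each). The labels and tables do not say which part of the gene it reads, so it does not check the genotype labels. Array medians lay between 2.942 and 3.195.

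Of the 9 genes, 7 had a promoter in RefSeq (GRCm38.p6), and 4 are shown because they carry the main contrasts of the knockout: Trem1 and Cd300lb rose in several populations, Cd300ld showed the largest rise, and Cd300a fell most often. Each run holds the 250 bases before the transcript start, 5′ to 3′ on the gene's strand, and capitals mark a GAGGAA on either strand, a core that the ETS factor PU.1 can bind.
Trem1, chr17:48232489-48232738, plus strand: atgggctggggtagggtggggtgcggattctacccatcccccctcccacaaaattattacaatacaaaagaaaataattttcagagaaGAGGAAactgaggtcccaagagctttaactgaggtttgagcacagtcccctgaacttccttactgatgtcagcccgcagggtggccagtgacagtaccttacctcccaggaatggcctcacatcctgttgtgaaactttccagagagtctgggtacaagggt
Cd300ld, chr11:114989887-114990136, minus strand: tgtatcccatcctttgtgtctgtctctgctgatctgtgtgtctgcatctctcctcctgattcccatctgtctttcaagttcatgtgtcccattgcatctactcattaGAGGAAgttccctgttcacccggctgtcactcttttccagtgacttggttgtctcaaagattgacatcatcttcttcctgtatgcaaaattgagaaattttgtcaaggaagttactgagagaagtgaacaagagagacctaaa
Cd300lb, chr11:114934372-114934621, minus strand: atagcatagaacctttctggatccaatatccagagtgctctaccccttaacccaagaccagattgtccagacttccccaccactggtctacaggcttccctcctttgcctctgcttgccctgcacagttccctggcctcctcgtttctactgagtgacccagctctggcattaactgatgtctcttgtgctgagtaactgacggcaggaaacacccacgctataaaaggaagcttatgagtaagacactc
Cd300a, chr11:114889791-114890040, plus strand: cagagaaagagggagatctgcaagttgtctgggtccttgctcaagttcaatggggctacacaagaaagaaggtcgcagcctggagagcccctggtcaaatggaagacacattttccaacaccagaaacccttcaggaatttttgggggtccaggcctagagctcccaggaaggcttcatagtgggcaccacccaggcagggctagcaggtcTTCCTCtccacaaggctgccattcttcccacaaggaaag

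GAGGAA was found in 5 of the 7 promoters, namely those of Trem1, Trem2, Cd300a, Cd300ld and Cd300lf, and in 23.3% of the 32851 promoters of the table. In Trem1 it began 162 bases before the start, in Cd300ld 143 bases, and on the reverse strand in Cd300a 39 bases, Cd300lf 43 bases and Trem2 40 bases before it. The transcript start used for Trem1, Cd300a and Cd300lf lies inside the span of the gene, so these are not distances from its outer start. The joint ETS and IRF core GGAANNGAA was in 0 of the 7 and in 6.99% of all promoters. The tandem core GAAANNGAA was in 1, that of Cd300lf, and in 7.13% of all. A match is a string of letters and not a measured binding site, and no match says only that the letters are not in this window.

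In wild type the 9 genes differed between populations, each in its own order. All 9 passed a moderated F-test over the 14 wild-type groups, as did 84.6% of all tested genes. The span between the highest and lowest group mean was 4.14 to 8.15 log2 units for the 9, beside a median of 1.74 over all genes. Levels are compared within a gene only, since each gene has a probe of its own.

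**Figure D1:**
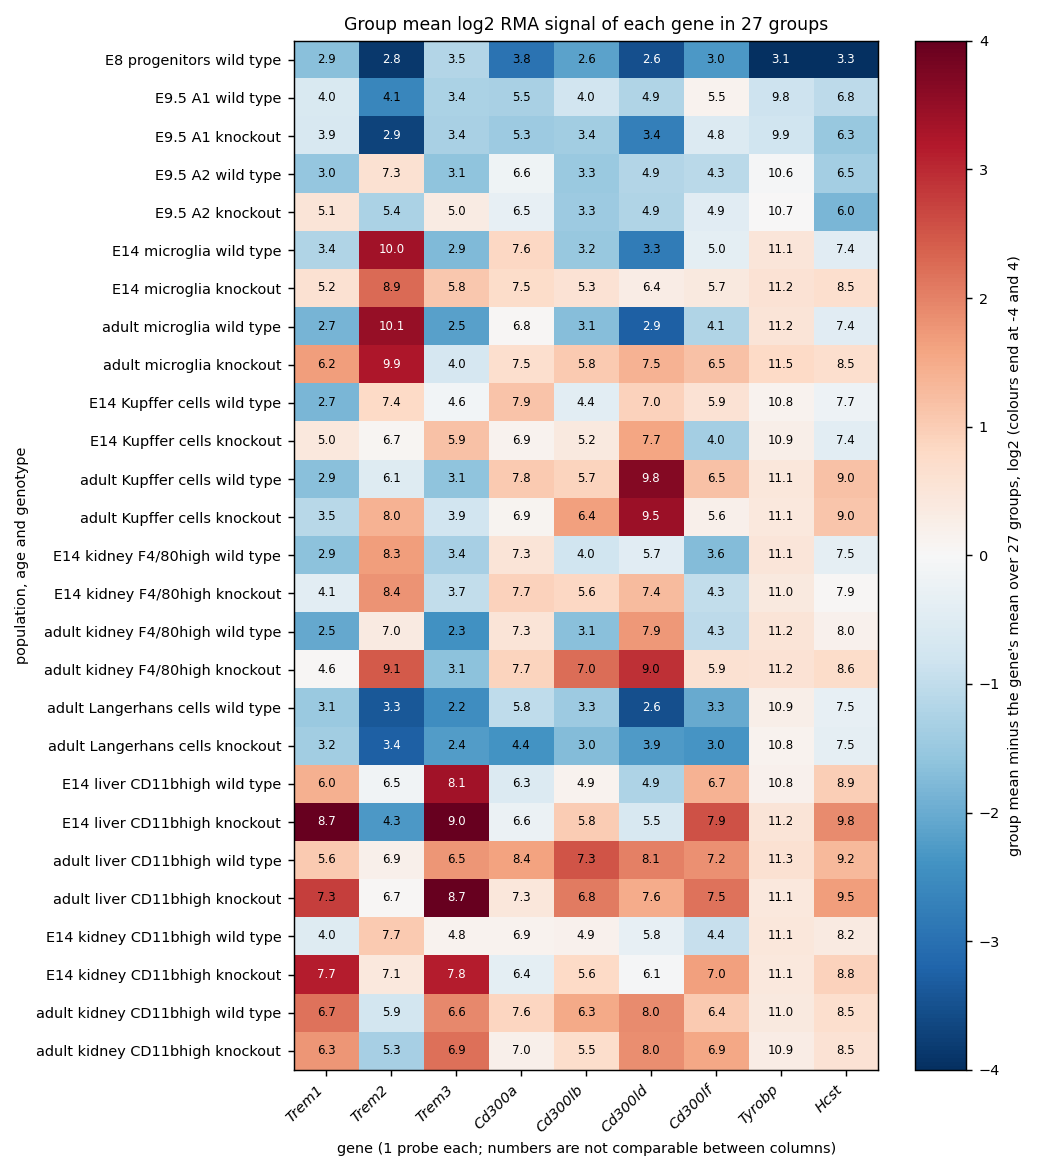
Group mean log2 RMA signal of the 9 genes (columns) in 27 groups (rows). The printed number is the group mean and the colour its distance from the gene's mean over the groups in log2 units. Tyrobp had a mean of 9.82 or more in every group after E8, while Trem1 and Trem3 stood high in most CD11bhigh groups and Trem2 in microglia.

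Trem2 was highest in microglia. In adult wild-type microglia it read 10.09, 10.04 and 10.30, in those of E14 9.82, 10.16 and 10.09, and these groups overlapped. In E14 kidney F4/80high macrophages it read 8.39 and 8.25, apart from both microglia groups. It lay at the bottom in Langerhans cells (2.47, 3.40 and 3.93) and in E8 progenitors (3.29, 2.41 and 2.68), which overlapped each other. Adult kidney F4/80high macrophages were split, at 5.44 in replicate 1 and 7.79 and 7.81 in replicates 2 and 3. Markers of kidney tubule, a source of other RNA in that digest, averaged 7.69 in replicate 1 and 4.77 and 6.62 in the others, and their part in the split was not tested.

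Trem1 and Trem3 were highest in 3 of the 4 CD11bhigh gates. Trem1 read 6.22, 6.44 and 7.52 in adult kidney CD11bhigh macrophages, 5.83, 6.06 and 6.03 in those of E14 liver and 5.86, 5.32 and 5.63 in those of adult liver. In resident wild-type macrophages of brain, liver and kidney it stayed between 2.10 and 3.57. Trem3 was highest in E14 liver CD11bhigh macrophages, at 7.77, 8.12 and 8.26, above adult kidney (5.52, 7.44 and 6.84) and adult liver (6.80, 6.46 and 6.11) CD11bhigh macrophages, which overlapped. The CD11bhigh gate of E14 kidney was lower, with Trem1 at 4.41, 3.76 and 3.92, which overlapped A1, and Trem3 at 4.87, 4.90 and 4.72, which overlapped E14 Kupffer cells. Of 13 neighbouring pairs in the order of wild-type groups, 10 overlapped for Trem1 and 10 for Trem3.

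Among the CD300 genes, Cd300ld had its peak in adult Kupffer cells, at 9.96, 9.59 and 9.89, and was near the floor in adult microglia, at 2.88, 2.86 and 2.85. Cd300lb was highest in adult liver CD11bhigh macrophages, at 7.48, 6.85 and 7.49, and low in adult microglia (3.07, 3.50 and 2.60) and adult kidney F4/80high macrophages (3.56, 2.87 and 2.85). The inhibitory Cd300a and Cd300lf were also highest in adult liver CD11bhigh macrophages. There Cd300a read 8.35, 8.33 and 8.52, apart from the next group, E14 Kupffer cells at 7.92, 7.91 and 7.98. Cd300lf read 7.37, 7.07 and 7.08, and 3.39, 3.70 and 2.85 in Langerhans cells.

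Tyrobp was high in all these cells but the E8 progenitors. It was at 2.90, 3.24 and 3.20 in E8 progenitors, at 9.50, 9.89 and 10.06 in A1, and between 10.46 and 11.50 in every sample of A2 and all later groups, both genotypes included. Its lowest sample after E8 lay above 98.7% of all values of the table, and the range of later groups was narrow beside that of the receptors. Hcst was at 3.01, 3.40 and 3.50 in E8 progenitors and between 5.94 and 9.85 in later samples of both genotypes. Among wild-type groups it was highest in adult liver CD11bhigh macrophages (9.15, 9.35 and 8.98), which overlapped adult Kupffer cells (9.03, 9.34 and 8.73).

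Without Irf8 the receptors changed far more often than Tyrobp. Over 13 populations and 9 genes, which make 117 pairs, 50 passed the test, 37 higher and 13 lower in the knockout, and the samples of the genotypes did not overlap in 48 of the 50. Over all tested genes, 90.8% of the called differences in these comparisons were free of overlap. Across the 13 comparisons, 0.591% to 16.6% of all tested genes were called higher and 1.38% to 10.4% lower. Trem1 was higher in 8 populations and lower in 0, Trem3 in 6 and 0, Cd300lb in 6 and 1, Cd300ld in 5 and 1, Cd300lf in 4 and 2, Hcst in 3 and 0, Trem2 in 2 and 3, Tyrobp in 2 and 0, and Cd300a in 1 and 6. By population, 8 of the 9 passed in adult microglia, where 14.6% of all tested genes did. It was 3 in adult Kupffer cells (11.9%), 5 in adult kidney F4/80high macrophages (3.57%), 2 in Langerhans cells (27%), 3 in adult liver (16.8%) and 2 in adult kidney (13.7%) CD11bhigh macrophages. At E14 it was 6 in microglia (14.3%), 5 in Kupffer cells (23%), 2 in kidney F4/80high macrophages (1.97%), 6 in liver (14%) and 4 in kidney (14%) CD11bhigh macrophages, and in the yolk sac 1 in A1 (3.36%) and 3 in A2 (10.1%). The counts in Langerhans cells and adult kidney CD11bhigh macrophages were near these background shares. All these counts rest on a spread shared by all groups. With the compared groups alone in the fit, adult Kupffer cells had 1 member and 128 genes called (2032 in the shared fit). Adult kidney CD11bhigh macrophages had 0 and 143 (2333), and E14 liver CD11bhigh macrophages 8 and 4597 (2399). Populations may share embryos, as given under the processing, so counts over populations are not independent.

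**Figure D2:**
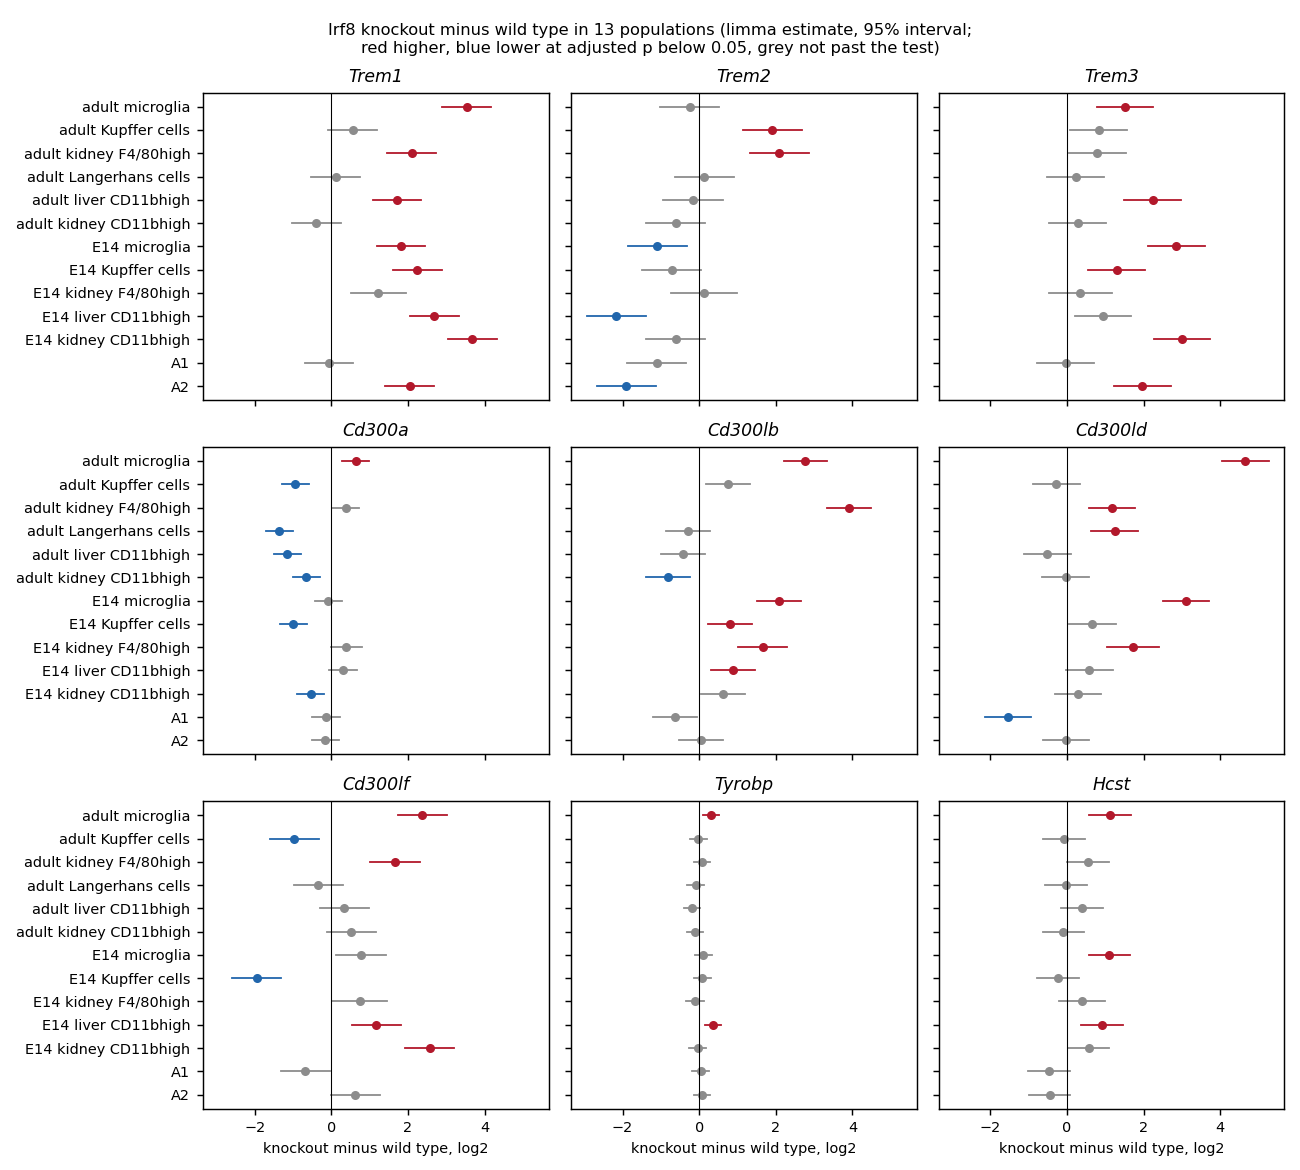
Difference between knockout and wild type (log2, x axis) in 13 populations (y axis) for each gene; points are limma estimates and lines 95% intervals. Red and blue points passed the test, and Tyrobp stays within 0.36 of 0 throughout.

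Trem1, the amplifier of inflammatory responses, rose in microglia, macrophages of the kidney F4/80high gate and several CD11bhigh populations. In adult microglia it went from 2.50, 2.86 and 2.74 in wild type to 6.45, 6.18 and 6.07 in the knockout, a rise of 3.53 ± 0.32 (SE; limma, adjusted p = 3.4e-14). In E14 microglia it went from 3.48, 3.10 and 3.48 to 4.93, 5.35 and 5.22, a rise of 1.82 ± 0.32 (adjusted p = 1.61e-05). In no population with a called rise of Trem1 did the genotypes overlap. The largest rise was in E14 kidney CD11bhigh macrophages, from 4.41, 3.76 and 3.92 to 8.05, 8.33 and 6.72, or 3.67 ± 0.32 (adjusted p = 1.89e-13). In E14 liver CD11bhigh macrophages it went from 5.83, 6.06 and 6.03 to 8.72, 9.04 and 8.20 (2.68 ± 0.32, adjusted p = 1.39e-09). Knockout replicate 3 of E14 kidney stood apart, with Trem1 lower and macrophage markers higher (7.85, against 5.78 and 6.20), and without it the rise was 4.16 (adjusted p = 1.06e-15).

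Trem1 also rose in E14 Kupffer cells (2.24 ± 0.32, adjusted p = 1.12e-07), adult kidney F4/80high macrophages (2.09 ± 0.32, adjusted p = 3.15e-06), A2 (2.04 ± 0.32, adjusted p = 1.44e-06) and adult liver CD11bhigh macrophages (1.71 ± 0.32, adjusted p = 2.7e-05). It did not pass in adult kidney CD11bhigh macrophages, where the wild type already stood at 6.73 ± 0.70 and the knockout at 6.33 ± 0.32 (SD, n = 3 each). In adult Kupffer cells, Langerhans cells and A1 it did not pass either, and in E14 kidney F4/80high macrophages the difference of 1.22 just missed (adjusted p = 0.052).

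Trem3, which lies beside Trem1 in the genome, rose in 6 populations. In E14 microglia it went from 2.87, 2.90 and 2.97 to 5.38, 6.20 and 5.73, a rise of 2.85 ± 0.37 (adjusted p = 1.65e-08). In E14 kidney CD11bhigh macrophages it went from 4.87, 4.90 and 4.72 to 8.24, 8.23 and 7.03, or 3.00 ± 0.37 (adjusted p = 8.15e-09), and 3.40 without knockout replicate 3. In adult liver CD11bhigh macrophages it went from 6.80, 6.46 and 6.11 to 8.99, 8.60 and 8.48 (2.24 ± 0.37, adjusted p = 2.69e-06). No sample of one genotype reached the range of the other in these populations. Smaller rises were called in A2 (1.97 ± 0.37, adjusted p = 6.12e-05), adult microglia (1.52 ± 0.37, adjusted p = 0.0018) and E14 Kupffer cells (1.30 ± 0.37, adjusted p = 0.00623). The call in adult microglia ended without knockout replicate 2 (adjusted p = 0.0788), and that in E14 Kupffer cells without wild-type replicate 1 (0.0916) and without knockout replicate 3 (0.0824). Wild-type adult microglia averaged 2.51 for Trem3, below the floor. With values below the floor set to it, the rise there was 0.95 (adjusted p = 0.0464).

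Neutrophils are known for Trem1 and Trem3, so their markers were read beside both genes. Of the 15 neutrophil markers, the knockout raised 11 in E14 microglia, 10 in E14 kidney, 12 in adult liver and 11 in adult kidney CD11bhigh macrophages, 5 in E14 liver CD11bhigh macrophages, 4 in E14 Kupffer cells, 2 in adult microglia, 2 in adult kidney F4/80high macrophages and 1 in A2, and lowered 0 in each. In adult microglia the list averaged 3.19, 6.69 and 4.02 in wild type, beside 4.94, 6.24 and 5.76 in the knockout. The genotypes overlapped in this mean and were apart in Trem1. In adult kidney CD11bhigh macrophages the list averaged 3.54 to 4.80 in wild type and 7.54 to 8.37 in the knockout, and neither Trem1 nor Trem3 passed. In A2 the list averaged 3.85, 5.13 and 3.96 in wild type, beside 4.69, 4.54 and 4.85 in the knockout, which overlapped, and Trem1 and Trem3 rose. All 7 monocyte markers also rose in E14 microglia, from means of 3.77 to 4.86 in wild type to 6.58 to 6.92, and 1 of the 7 in adult microglia. In E14 kidney CD11bhigh macrophages 9 of 10 macrophage markers fell, from 8.94 to 9.05 in wild type to 5.78 to 7.85. In all 6 populations in which both genes rose, from 1 to 12 of the 15 neutrophil markers rose as well. The low counts, 1 in A2, 2 in adult microglia and 4 in E14 Kupffer cells, stand beside 3.77%, 5.86% and 13.2% of all tested genes called higher there. The part of these markers in the change of Trem1 and Trem3 was not tested. Over the 27 group means the neutrophil list and Trem1 had a Pearson r of 0.80 and the list and Trem3 0.88, a description over groups that share arrays processed together.

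**Figure D3:**
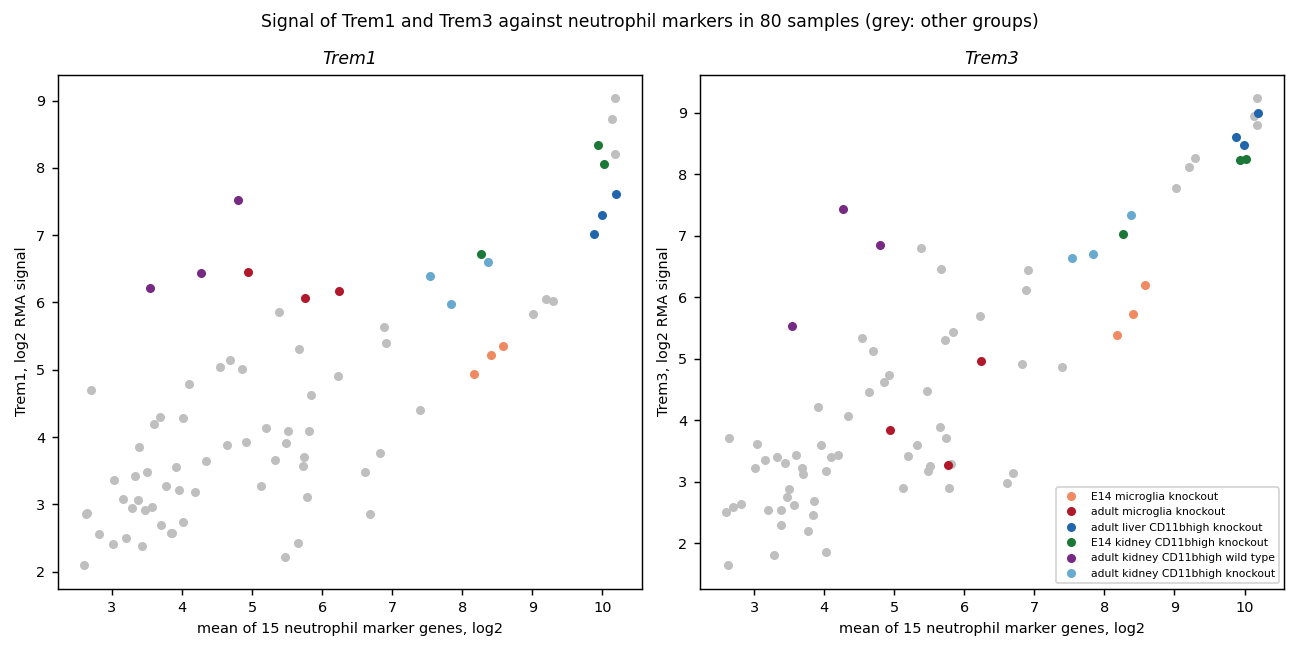
Signal of Trem1 (left) and Trem3 (right) in log2 units against the mean of 15 neutrophil marker genes in 80 samples; each point is a sample. Knockout adult microglia and wild-type adult kidney CD11bhigh macrophages have Trem1 at 6.07 or more at neutrophil means between 3.54 and 6.24.

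Trem2, the lipid sensor, moved both ways. It rose in adult Kupffer cells, from 6.42, 5.50 and 6.49 to 8.34, 7.41 and 8.36, by 1.90 ± 0.39 (adjusted p = 0.000309). It rose in adult kidney F4/80high macrophages, from 5.44, 7.79 and 7.81 to 9.38, 8.78 and 9.14, by 2.09 ± 0.39 (adjusted p = 0.000143), by 1.30 without the split wild-type replicate 1 (adjusted p = 0.0331), and did not pass with those groups alone in the fit (0.0892). In both, every knockout sample lay above every wild-type sample. It fell in E14 liver CD11bhigh macrophages, from 6.67, 6.60 and 6.28 to 4.59, 3.29 and 5.16, by 2.17 ± 0.39 (adjusted p = 2.46e-05). It fell in A2, from 7.48, 7.19 and 7.18 to 5.62, 5.52 and 5.01, by 1.90 ± 0.39 (adjusted p = 0.00022). The fall in E14 microglia, from 9.82, 10.16 and 10.09 to 8.97, 8.80 and 9.02, was -1.09 ± 0.39 (adjusted p = 0.0454), and the call ended when any 1 of its 6 samples was left out (adjusted p = 0.0683 to 0.132), with no floor (0.0565) or with no variance trend (0.0543).

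In adult microglia, where Trem2 is best known, its level was 10.09, 10.04 and 10.30 in wild type, beside 10.09, 9.79 and 9.80 in the knockout, a difference of -0.25 with a 95% interval of -1.02 to 0.52 (adjusted p = 0.802). Macrophage markers fell with Trem2 in A2, where 9 of the 10 were lower and 0 higher, from a mean of 8.36 to 8.78 in wild type to 5.83 to 6.26 in the knockout. Of the same markers in E14 liver CD11bhigh macrophages, 5 were lower and 0 higher, from 5.91 to 6.18 in wild type to 4.41 to 4.85, and in E14 microglia 4 lower and 1 higher. Endothelial markers rose with Trem2 in adult Kupffer cells, 7 of 8, and sex differed there as well. The part of these in the changes of Trem2 was not tested, and sex and genotype in adult Kupffer cells cannot be told apart.

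Cd300lb and Cd300ld, the activating CD300 receptors, rose in microglia and in kidney F4/80high macrophages at both ages. Cd300ld went from 2.88, 2.86 and 2.85 to 7.60, 7.66 and 7.29 in adult microglia, a rise of 4.66 ± 0.30 (adjusted p = 5.87e-20) and the largest of any member in any population. In E14 microglia it went from 3.60, 3.39 and 3.01 to 6.43, 6.57 and 6.32 (3.11 ± 0.30, adjusted p = 3.33e-12). The gene was therefore near the floor in wild-type microglia at both ages and well above it in all 6 knockout samples. Monocyte and neutrophil markers also rose in knockout E14 microglia, as given with Trem1 and Trem3, and their part in this rise was not tested. In kidney F4/80high macrophages it rose by 1.71 ± 0.34 at E14 (adjusted p = 0.00102), from 5.61 and 5.72 to 7.62, 7.40 and 7.12. In the adult it rose there by 1.17 ± 0.30 (adjusted p = 0.0128), from 8.08, 8.06 and 7.49 to 9.04, 8.92 and 9.19, a call that ended without wild-type replicate 3 (adjusted p = 0.134) and without knockout replicate 3 (0.0727).

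Cd300ld further rose in Langerhans cells, from 2.29, 2.86 and 2.71 to 4.17, 3.80 and 3.63 (1.25 ± 0.30, adjusted p = 0.000927). Keratinocyte markers were raised there as well, 5 of 5, from means of 7.15 to 7.54 in wild type to 9.43 to 9.57, and the gate may differ as named above, so these cannot be told apart from genotype. In A1 Cd300ld fell, from 4.18, 5.29 and 5.32 to 4.20, 2.67 and 3.31, by 1.54 ± 0.30 (adjusted p = 0.000407), with 1 knockout sample above the lowest of wild type. Macrophage markers fell there as well, 7 of 10, from 6.06 to 6.33 in wild type to 4.35 to 4.93, and their part was not tested. In adult Kupffer cells, its site of highest level, it read 9.96, 9.59 and 9.89 in wild type, beside 10.06, 9.10 and 9.45 in the knockout, a difference of -0.27 with a 95% interval of -0.88 to 0.34.

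Cd300lb went from 3.56, 2.87 and 2.85 to 7.0, 6.82 and 7.17 in adult kidney F4/80high macrophages, a rise of 3.90 ± 0.29 (adjusted p = 3.81e-16). In adult microglia it went from 3.07, 3.50 and 2.60 to 5.68, 5.84 and 5.97 (2.77 ± 0.29, adjusted p = 4.66e-12), and in those of E14 from 3.21, 2.99 and 3.55 to 5.26, 5.42 and 5.33 (2.09 ± 0.29, adjusted p = 6.41e-08). In these groups the wild type was close to the floor and the knockout was not. The part of the monocyte and neutrophil markers that rose in E14 microglia was not tested here either. It rose by 1.65 ± 0.32 in E14 kidney F4/80high macrophages (adjusted p = 0.000736), a call that ended without wild-type replicate 2 (0.0651), which leaves 1 wild-type sample assumed to vary like the other groups. Rises in E14 liver CD11bhigh macrophages (0.89 ± 0.29, adjusted p = 0.0252) and E14 Kupffer cells (0.80 ± 0.29, adjusted p = 0.0329) were small. The call in E14 Kupffer cells ended without any 1 of the 6 samples (adjusted p = 0.0583 to 0.0911), and that in E14 liver ended without any but wild-type replicate 1 (adjusted p = 0.0539 to 0.102).

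The one fall of Cd300lb, in adult kidney CD11bhigh macrophages, went from 5.82, 6.26 and 6.79 to 6.14, 5.36 and 4.95, by 0.81 ± 0.29 (adjusted p = 0.0475). The genotypes overlapped, and the call ended without wild-type replicate 2 (adjusted p = 0.0927) or 3 (0.252) and without knockout replicate 2 (0.143) or 3 (0.295). It also ended with median centring (0.0792), no floor (0.0591), array weights (0.298) and in the fit of the compared groups alone (0.443).

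Cd300a, an inhibitory receptor, was the member that fell most often. In Langerhans cells it went from 5.99, 5.53 and 5.76 to 4.41, 4.58 and 4.23, by -1.36 ± 0.18 (adjusted p = 6.49e-09). In adult liver CD11bhigh macrophages it went from 8.35, 8.33 and 8.52 to 7.14, 7.40 and 7.21, by -1.15 ± 0.18 (adjusted p = 5.52e-07). In both, the samples of the genotypes lay apart. The keratinocyte markers, the gate and Eif2s3y differed in Langerhans cells, as given above, and cannot be told apart from genotype. In adult liver CD11bhigh macrophages all 5 B cell markers rose, from 4.24 to 4.62 in wild type to 5.51 to 6.71. The mean of the neutrophil markers rose there by more, as given above, and 4 of 10 macrophage markers fell. The part of these in the fall of Cd300a was not tested. Cd300a fell in Kupffer cells at both ages, by 0.94 ± 0.18 in adults (adjusted p = 0.000103), from 8.09, 7.72 and 7.69 to 7.54, 6.29 and 6.86, and by 0.99 ± 0.18 at E14 (adjusted p = 1.4e-05), from 7.92, 7.91 and 7.98 to 7.03, 7.02 and 6.78. In adult Kupffer cells the fit of those groups alone did not call it (adjusted p = 0.259). Macrophage and Kupffer markers fell in knockout E14 Kupffer cells, endothelial markers rose in adult ones, and their part was not tested. Sex and genotype cannot be told apart in adult Kupffer cells. Over the 27 group means Cd300a had a Pearson r of 0.76 with the macrophage list.

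The falls of Cd300a in kidney CD11bhigh macrophages were smaller, at -0.66 ± 0.18 in adults (adjusted p = 0.00669) and -0.54 ± 0.18 at E14 (adjusted p = 0.0305). The adult call ended without knockout replicate 2 (adjusted p = 0.0639), with array weights (0.106) or with the compared groups alone (0.239). The E14 call ended without wild-type replicate 1 (0.0716) or 2 (0.119) and without knockout replicate 1 (0.137) or 2 (0.101), with median centring (0.0839) or with the compared groups alone (0.11). The one called rise of Cd300a was in adult microglia, from 6.71, 6.76 and 7.07 to 7.19, 7.82 and 7.43, by 0.63 ± 0.18 (adjusted p = 0.00751), and this call ended without knockout replicate 2 (0.126).

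Cd300lf, the other inhibitory member and the entry receptor of murine norovirus, rose in 4 populations and fell in both Kupffer groups. In adult microglia it went from 3.54, 4.41 and 4.44 to 6.53, 5.79 and 7.18, by 2.37 ± 0.32 (adjusted p = 2.54e-08). In E14 kidney CD11bhigh macrophages it went from 4.31, 4.70 and 4.25 to 7.58, 7.62 and 5.74, by 2.56 ± 0.32 (adjusted p = 1.15e-08), and by 3.18 without knockout replicate 3. The knockout samples lay above all wild-type samples in both. In E14 kidney CD11bhigh macrophages neutrophil markers rose and macrophage markers fell, as given above, and their part in the rise of Cd300lf was not tested. Over the 27 group means Cd300lf had a Pearson r of 0.70 with the neutrophil list and 0.81 with the monocyte list. It rose by 1.66 ± 0.32 in adult kidney F4/80high macrophages (adjusted p = 0.000314) and by 1.17 ± 0.32 in E14 liver CD11bhigh macrophages (adjusted p = 0.00738), the latter call ending without knockout replicate 2 (0.0661).

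In E14 Kupffer cells Cd300lf fell from 6.43, 5.83 and 5.55 to 4.26, 3.91 and 3.79, by 1.95 ± 0.32 (adjusted p = 3.01e-06), in the samples in which 8 of 10 Kupffer markers and 9 of 10 macrophage markers also fell. In adult Kupffer cells it fell from 6.52, 6.55 and 6.49 to 5.79, 5.10 and 5.77, by 0.96 ± 0.32 (adjusted p = 0.0372). That call ended without wild-type replicate 1 (adjusted p = 0.0891), 2 (0.0845) or 3 (0.0661) and without knockout replicate 2 (0.232), and with quantile normalization (0.0554), array weights (0.302) or those groups alone in the fit (0.22). Sex and genotype cannot be told apart in these adult cells, as given above. The array also holds 2 probes that name Cd300lf together with close relatives, which were not used.

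The adaptors moved least. Tyrobp passed in adult microglia (10.89, 11.34 and 11.21 to 11.49, 11.50 and 11.37; 0.30 ± 0.11, adjusted p = 0.0451) and E14 liver CD11bhigh macrophages (10.75, 10.80 and 10.88 to 11.14, 11.18 and 11.18; 0.36 ± 0.11, adjusted p = 0.0146). The first call ended without wild-type replicate 1 (adjusted p = 0.421) or 3 (0.0622) and without knockout replicate 1 (0.121) or 2 (0.146), and with quantile normalization, median centring, no floor, array weights, no variance trend or only the compared groups in the fit (0.0522 to 0.177). The second ended without wild-type replicate 1 (0.07) and without knockout replicate 2 (0.0565). Tyrobp lies near the top of the array's range, at up to 11.50 where the highest value of the table is 12.47.

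Hcst, whose gene neighbours Tyrobp, rose in microglia of both ages. In adult microglia it went from 7.29, 7.30 and 7.63 to 8.77, 8.47 and 8.37 (1.13 ± 0.27, adjusted p = 0.00156), and at E14 from 7.47, 7.37 and 7.43 to 8.63, 8.43 and 8.53 (1.11 ± 0.27, adjusted p = 0.00228). The samples of the genotypes stayed apart at both ages. Monocyte and neutrophil markers rose in the same E14 samples, and their part in the rise of Hcst was not tested. In E14 liver CD11bhigh macrophages it rose by 0.92 ± 0.27 (adjusted p = 0.0143), from 8.59, 8.71 and 9.26 to 9.79, 9.85 and 9.66, and this ended without wild-type replicate 1 (0.0972) or 2 (0.0651) and without knockout replicate 2 (0.0651). In E14 kidney CD11bhigh macrophages the knockout read 9.67, 9.34 and 7.34 beside 8.37, 8.37 and 7.91, and it did not pass.

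The effect of the knockout was then compared between adult and E14, as the difference of the differences. Of 45 pairs in 5 populations, 14 passed, 3 of 9 in microglia (background 10.5%), 2 in Kupffer cells (16.4%), 1 in kidney F4/80high macrophages (1.04%), 4 in liver CD11bhigh macrophages (14.5%) and 4 in kidney CD11bhigh macrophages (13.3%). In microglia the effect was larger in the adult for Trem1 (by 1.72 ± 0.45, adjusted p = 0.00663), Cd300ld (by 1.55 ± 0.43, adjusted p = 0.011) and Cd300lf (by 1.60 ± 0.45, adjusted p = 0.0132). The call for Cd300lf ended without adult wild-type replicate 1 (0.0687), adult knockout replicate 3 (0.0815) or E14 knockout replicate 1. Wild-type Trem1 and Cd300ld lay below the floor in all 3 adult samples, so the sizes of these differences are uncertain. With values below the floor set to it, the difference of effects was 1.38 for both genes (adjusted p = 0.00874 and 0.012). In that fit Trem3 went the other way in microglia (-1.78, adjusted p = 0.00795), and Cd300a was larger in the adult (0.72, adjusted p = 0.0434). Neither was called in the main fit. In Kupffer cells the difference of Trem2 between genotypes was -0.72 at E14, which did not pass, and 1.90 in the adult (a difference of effects of 2.62 ± 0.55, adjusted p = 0.000358). Trem1 went the other way, from 2.24 at E14 to 0.56 in the adult, which did not pass (difference -1.68 ± 0.45, adjusted p = 0.00539), a call that ended when the fit held those groups alone (0.0508).

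**Figure D4:**
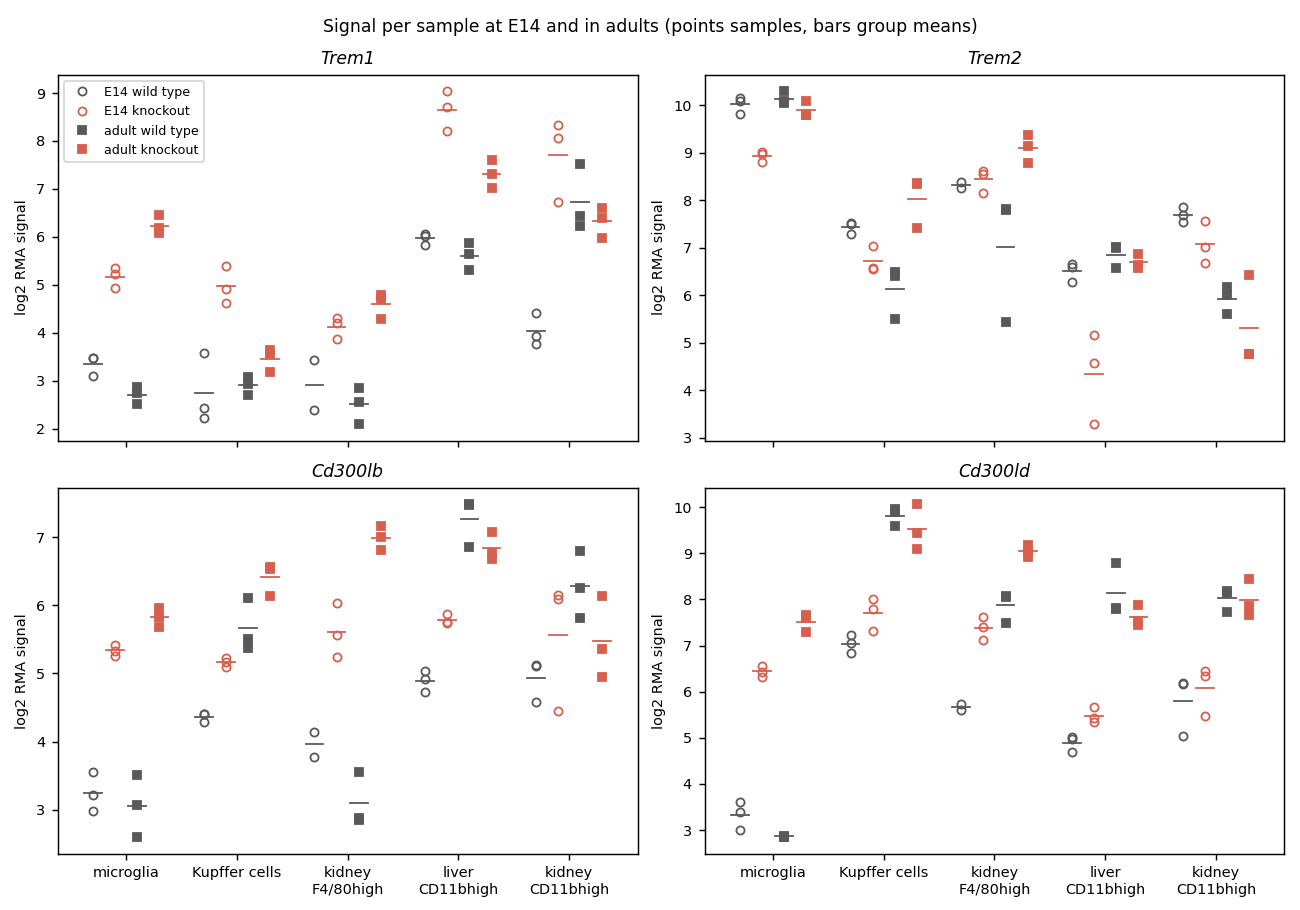
Log2 signal per sample of Trem1, Trem2, Cd300lb and Cd300ld in 5 populations; open circles are E14 and filled squares adult, grey wild type and red knockout, and short bars group means. In kidney CD11bhigh macrophages Trem1 of the knockout stands at 6.72 to 8.33 at E14 against 3.76 to 4.41 in wild type, and the adult groups overlap.

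In kidney CD11bhigh macrophages the effects on Trem1, Trem3 and Cd300lf were larger at E14 than in adults, where none of these genes passed, with differences of -4.07 ± 0.45 (adjusted p = 3.52e-09), -2.72 ± 0.52 (adjusted p = 0.000149) and -2.05 ± 0.45 (adjusted p = 0.000973). For Trem1 the adult wild type was at 6.73 ± 0.70 and the E14 wild type at 4.03 ± 0.34 (SD, n = 3 each), while the knockouts were at 6.33 ± 0.32 and 7.70 ± 0.86. Cd300lb differed by -1.44 ± 0.40 (adjusted p = 0.0102), which ended without adult knockout replicate 3 (0.0563) or E14 knockout replicate 1 (0.0609) or 2 (0.0683). With those groups alone in the fit, the calls of Cd300lb (0.275) and Cd300lf (0.113) ended. In kidney F4/80high macrophages the rise of Cd300lb was larger in adults, by 2.25 ± 0.43 (adjusted p = 0.000936).

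In liver CD11bhigh macrophages Cd300a fell in adults and did not pass at E14 (difference of effects -1.45 ± 0.25, adjusted p = 1.17e-05), and Trem2 fell at E14 and did not pass in adults (2.00 ± 0.55, adjusted p = 0.0066). The call of Trem2 ended without E14 knockout replicate 2 (adjusted p = 0.0699). Cd300lb differed by -1.31 ± 0.40 (adjusted p = 0.018), which ended without adult wild-type replicate 1 (0.0521) or 3 (0.0505), and Tyrobp by -0.54 ± 0.15 (adjusted p = 0.00862).

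Between E14 and the adult in wild type, Cd300ld rose in all populations but microglia. The rise was 2.77 ± 0.30 in Kupffer cells (adjusted p = 2.03e-11), 2.21 ± 0.34 in kidney F4/80high macrophages (adjusted p = 4.88e-07), 3.24 ± 0.30 in liver (adjusted p = 6.17e-14) and 2.22 ± 0.30 in kidney (adjusted p = 1.62e-08) CD11bhigh macrophages. In Kupffer cells the samples went from 7.05, 6.84 and 7.24 to 9.96, 9.59 and 9.89. In microglia it read 3.60, 3.39 and 3.01 at E14 and 2.88, 2.86 and 2.85 in adults and did not pass. Members called were 1 of 9 in microglia (18.4% of all genes), 6 in Kupffer cells (30.1%), 4 in kidney F4/80high macrophages (28.3%), 5 in liver (34.4%) and 7 in kidney (35.1%) CD11bhigh macrophages.

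The one change in microglia was Cd300a, which fell by 0.76 ± 0.18 (adjusted p = 0.000776), from 7.57, 7.75 and 7.51 to 6.71, 6.76 and 7.07. In CD11bhigh macrophages Cd300a rose with age, by 2.14 in liver (adjusted p = 5.22e-16) and by 0.71 in kidney (adjusted p = 0.000966). Cd300lf rose by 1.97 in kidney CD11bhigh macrophages (adjusted p = 9.94e-07). Cd300lb rose in Kupffer cells (1.30 ± 0.29, adjusted p = 0.000217), liver (2.38 ± 0.29, adjusted p = 2.59e-10) and kidney CD11bhigh macrophages (1.35 ± 0.29, adjusted p = 0.000101). Hcst rose in Kupffer cells, from 7.71, 7.67 and 7.58 to 9.03, 9.34 and 8.73 (1.38 ± 0.27, adjusted p = 4.1e-05). Trem2 fell in Kupffer cells (-1.31 ± 0.39, adjusted p = 0.006), a call that ended without adult replicate 2 (0.0769), and in kidney CD11bhigh macrophages (-1.76 ± 0.39, adjusted p = 0.00017). Its fall in kidney F4/80high macrophages of -1.31 ± 0.43 (adjusted p = 0.016) became -0.52 without the split adult replicate 1 (adjusted p = 0.406), and ended without E14 replicate 1 (0.107) or 2 (0.0701) or with those groups alone (0.141).

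The one called rise of Trem1 with age was in kidney CD11bhigh macrophages, by 2.69 ± 0.32 (adjusted p = 2.5e-10). Trem3 rose there too (1.77 ± 0.37, adjusted p = 8.66e-05) and fell in Kupffer cells (-1.48 ± 0.37, adjusted p = 0.00111) and liver CD11bhigh macrophages (-1.60 ± 0.37, adjusted p = 0.000353). In kidney F4/80high macrophages the falls of Trem3 (-1.09 ± 0.41, adjusted p = 0.0393) and Cd300lb (-0.87 ± 0.32, adjusted p = 0.0336) were not stable to leaving out samples. Trem3 lay below the floor in all 3 adult samples, and with values below the floor set to it the difference was -0.31 (adjusted p = 0.715). The call of Trem3 also ended with quantile normalization (0.0688) and without adult replicate 1 (0.222) or E14 replicate 1 (0.173) or 2 (0.128). That of Cd300lb ended without adult replicate 2 (0.111) or 3 (0.116) or E14 replicate 1 (0.265) or 2 (0.059), with those groups alone (0.081) or with values set to the floor (0.0618). Tyrobp rose by 0.31 ± 0.11 in Kupffer cells (adjusted p = 0.0201), which ended without E14 replicate 1 (0.151) or adult replicate 1 (0.104), with median centring (0.152) or with no variance trend (0.0528), and by 0.45 ± 0.11 in liver CD11bhigh macrophages (adjusted p = 0.000538).

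Set against the resident gate of the same organ, the wild-type CD11bhigh gate held more Trem1 and Trem3 at both ages. In adult kidney Trem1 was higher by 4.22 ± 0.32 (adjusted p = 3.64e-17) and Trem3 by 4.34 ± 0.37 (adjusted p = 4.76e-15), and in adult liver by 2.70 ± 0.32 (adjusted p = 1.75e-10) and 3.38 ± 0.37 (adjusted p = 1.7e-11). In E14 liver the differences were 3.23 ± 0.32 (adjusted p = 5.81e-13) and 3.49 ± 0.37 (adjusted p = 7.24e-12). In E14 kidney they were 1.13 ± 0.36 (adjusted p = 0.0429) and 1.48 ± 0.41 (adjusted p = 0.0174). The E14 kidney calls were fragile: that of Trem1 ended without CD11bhigh replicate 1 (0.187) or 3 (0.0701) or F4/80high replicate 2 (0.713), with no floor (0.0535), those groups alone (0.094) or values set to the floor (0.105), and that of Trem3 without CD11bhigh replicate 2 (0.0546) or F4/80high replicate 1 (0.111) or 2 (0.173). With the number in the sample titles as a block, which may mark gates sorted from 1 preparation, Trem1 in E14 kidney did not pass (0.94, adjusted p = 0.18) and every other call of these gates held. Members called were 5 of 9 in adult liver (28% of all genes), 5 in adult kidney (23.6%), 5 in E14 liver (24.6%) and 2 in E14 kidney (5.82%).

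Cd300lb was higher in the CD11bhigh gate of adult liver (1.61 ± 0.29, adjusted p = 5.58e-06) and adult kidney (3.20 ± 0.29, adjusted p = 3.05e-14), and Cd300lf in adult kidney (2.10 ± 0.32, adjusted p = 4.34e-07). Cd300ld was lower than in Kupffer cells, by 1.68 ± 0.30 in adult (adjusted p = 8.88e-06) and 2.15 ± 0.30 in E14 liver (adjusted p = 3.96e-08). Cd300a was lower than in Kupffer cells at E14 (-1.67 ± 0.18, adjusted p = 7.14e-12) and higher in adults (0.56 ± 0.18, adjusted p = 0.0111), the latter ending without CD11bhigh replicate 3 (0.0572) or Kupffer replicate 2 (0.0521) or 3 (0.0619) or with quantile normalization (0.0559). Hcst was higher in E14 liver (1.20 ± 0.27, adjusted p = 0.000399). Trem2 was lower in the CD11bhigh gate of adult kidney by 1.08 ± 0.39 with overlapping samples (adjusted p = 0.033). Without the split F4/80high replicate 1 this became -1.87 (adjusted p = 8.78e-05), and it ended without F4/80high replicate 2 (0.282) or 3 (0.288) or CD11bhigh replicate 1 (0.123) or 2 (0.0616), with quantile normalization (0.0637), array weights (0.0864) or those groups alone (0.318).

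From E8 progenitors to A1, 8 of the 9 genes rose (22.7% of all genes were called). Tyrobp rose most, by 6.71 ± 0.11 (adjusted p = 1.57e-53), from 2.90, 3.24 and 3.20 to 9.50, 9.89 and 10.06, and Hcst by 3.51 ± 0.27 (adjusted p = 2.7e-17), from 3.01, 3.40 and 3.50 to 6.63, 6.47 and 7.34. The CD300 genes rose by 1.38 (Cd300lb) to 2.45 (Cd300lf). Trem1 rose by 1.08 ± 0.32 (adjusted p = 0.00755), which ended without E8 replicate 1 (0.0877), and Trem2 by 1.27 ± 0.39 (adjusted p = 0.0101), which ended without E8 replicate 2 (0.0692) or with values set to the floor (0.0611). Trem3 did not pass.

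From A1 to A2 5 of 9 passed (11.4%). Trem2 rose by 3.22 ± 0.39 (adjusted p = 1.14e-09), from 4.09, 4.11 and 3.99 to 7.48, 7.19 and 7.18, the largest step of any member here. Cd300a (1.13 ± 0.18, adjusted p = 1.25e-06) and Tyrobp (0.79 ± 0.11, adjusted p = 4.35e-08) rose as well. Cd300lf fell by 1.22 ± 0.32 (adjusted p = 0.00519) and Trem1 by 0.94 ± 0.32 (adjusted p = 0.0422), the latter ending without A1 replicate 1 (0.151) or 3 (0.135) or A2 replicate 1 (0.258) or 3 (0.0552), with quantile normalization (0.0931), median centring (0.0829) or no floor (0.0528). From A2 to E14 microglia 5 of 9 passed (29.2%). Trem2 rose by a further 2.74 ± 0.39 (adjusted p = 3.79e-08), Cd300a by 0.99 ± 0.18 (adjusted p = 7.54e-06), Tyrobp by 0.52 ± 0.11 (adjusted p = 8.91e-05) and Hcst by 0.93 ± 0.27 (adjusted p = 0.00568), and Cd300ld fell by 1.61 ± 0.30 (adjusted p = 1.91e-05). The call of Hcst ended without A2 replicate 1 (0.0616).

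From A2 to E14 Kupffer cells 6 of 9 passed (25.6%), all higher. They were Cd300ld (2.09 ± 0.30, adjusted p = 1.02e-07), Cd300lf (1.67 ± 0.32, adjusted p = 3.43e-05), Trem3 (1.5 ± 0.37, adjusted p = 0.00117), Cd300a (1.32 ± 0.18, adjusted p = 1.44e-08), Hcst (1.16 ± 0.27, adjusted p = 0.000641) and Cd300lb (1.08 ± 0.29, adjusted p = 0.0025). So Cd300ld fell on the step to microglia and rose on that to Kupffer cells, and Trem2 rose on the step to microglia and did not pass on that to Kupffer cells. The steps share the A2 samples.

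The rest of the pathway was read from lists. Of 17 tested genes listed as inhibitory receptors, the knockout raised 7 and lowered 3 in adult microglia, where 5.86% of all tested genes were called higher and 8.72% lower. It raised 6 and lowered 4 in E14 microglia (8.32% and 5.99%) and 3 and 8 in E14 Kupffer cells (13.2% and 9.83%). Siglec1, Lilra5, Cd200r1 and Cd33 of that list lack a classical ITIM in the mouse, and for the 13 others the counts were 6 and 2, 4 and 2, and 2 and 6, a trimming chosen after the values were seen. In adult microglia Clec12a, a lectin that dampens myeloid activation, rose by 6.02 ± 0.40, Siglec1, a sialic acid receptor, by 4.97 ± 0.36, Lilrb4a by 3.41 ± 0.24 and Pilra by 3.13 ± 0.29. The medians of the full list were 0.05, 0.38 and -0.60 log2 units, beside -0.03, 0.03 and 0.03 over all genes. Of the 13 genes left after the trimming, the knockout raised 1 and lowered 7 in A2 (3.77% and 6.29% of all genes), with a median of -0.77. In A1 it raised 0 and lowered 5 (0.591% and 2.77%), with a median of -0.56. Macrophage markers fell in A1 and A2 as well, and their part was not tested. Of 18 other receptors that use Tyrobp, Hcst or the Fc receptor gamma chain, 4 rose and 2 fell in adult microglia (5.86% and 8.72% of all genes), with Pilrb2 (3.72) and Pilrb1 (3.03), activating partners of DAP12, at the front of the rises. In E14 Kupffer cells 2 rose and 9 fell (13.2% and 9.83%), with Clec5a, another DAP12 partner, up by 3.30, and the growth factor receptor Csf1r (-1.70) and the Fc receptors Fcgr1 (-2.05) and Fcgr4 (-1.84) down.

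Of 31 genes of signalling below the ITAM, 3 rose and 7 fell in adult microglia (5.86% and 8.72% of all genes), 2 and 8 in E14 microglia (8.32% and 5.99%), 2 and 10 in adult Kupffer cells (4.5% and 7.4%) and 5 and 9 in E14 Kupffer cells (13.2% and 9.83%). In microglia the phospholipase gene Plcg1 fell by 1.92 in adults and by 1.48 at E14, and the exchange factor gene Vav2 by 1.19 and 1.59. The median of the list lay between -0.38 and 0.08 over the 13 populations. Among 8 ligands and sheddases, Apoe, a lipoprotein that Trem2 binds, rose by 3.52 ± 0.23 in adult microglia and fell, among others, in adult liver (-1.99) and adult kidney (-2.13) CD11bhigh macrophages and A2 (-2.23). Pglyrp1, reported as a partner of Trem1 and itself a granule protein of neutrophils, rose by 4.06 in E14 microglia and by 2.23 in E14 kidney CD11bhigh macrophages. Adam10 and Adam17, proteases that shed Trem2, fell by 0.51 and 0.64 in adult microglia, by 0.45 and 0.59 in E14 microglia and by 0.80 and 0.81 in adult Kupffer cells.

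Among 9 tested relatives of the receptors, Cd300ld3 rose in adult microglia (2.71), E14 microglia (1.42) and E14 kidney F4/80high macrophages (1.40). Those were also populations in which Cd300ld rose, and Cd300ld and Cd300ld3 are close relatives, so reading of one by the other's probe cannot be told apart from change. Cd300c2, an activating CD300 receptor, fell in Langerhans cells (-1.10), adult liver CD11bhigh macrophages (-1.10), E14 Kupffer cells (-0.99), A1 (-1.23) and A2 (-1.0). From E8 to A1 the pathway rose broadly, with 25 of 31 signalling genes, 15 of 18 pairing receptors and 14 of 17 inhibitory receptors higher and 0 lower (12.8% and 9.9% of all genes), with medians of 1.32, 2.01 and 1.85 beside -0.06 over all genes. Fcer1g, the Fc receptor gamma chain itself, rose by 4.99.

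The genes most like each member over the 27 group means, among 8672 genes whose means span at least 2 log2 units, were found by Pearson r, which is a description of groups processed together. Tyrobp was most like Fcer1g (0.98), B2m (0.98) and Spi1 (0.96), and the step at E8 weighs on these values. Trem2 was most like Itgb5 (0.91), Cx3cr1 (0.90) and P2ry6 (0.90), and Trem1 like Trem3 (0.90), G0s2 (0.89) and Lyst (0.87). Trem3 was most like G0s2 (0.93), Cebpe (0.93) and Ltb4r1 (0.93). For Cd300ld they were Irf7 (0.87), Rtp4 (0.87) and Gm19765 (0.87), and for Cd300lb Rassf3 (0.85), Dram1 (0.81) and Cd300ld (0.79). Cd300a went with Lrrc25 (0.90), Cd300c2 (0.89) and Slc11a1 (0.89), Cd300lf with Ifitm6 (0.87), Ccdc125 (0.85) and Ly6c2 (0.85), and Hcst with Gpsm3 (0.89), Lasp1 (0.89) and Rhog (0.89). Among the members the highest r was that of Trem1 and Trem3 (0.90) and the lowest that of Trem2 and Trem3 (-0.07).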

How the data were processed

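Sorted cells of mice were profiled on Affymetrix arrays, 81 arrays for 80 samples. Per the labels' protocols, RNA was isolated with PicoPure, amplified (Ovation PicoSL WTA) and biotin-labelled. The deposited values are log2 signals from RMA. The authors ran Expression Console, as listed in the submitters' processing notes. Its version and a genome build were not given in the sources used here.

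Of 41345 probes, 23521 named 1 gene and were used, 1814 named several, and the rest named none in the annotation used. The brightest probe stood for each of 22180 genes. Genes above 3.041, the 50th percentile of the table, in at least 2 samples were tested (17076). The A2 knockout replicate 2, run on 2 arrays, was averaged (r = 0.985 between runs). Group means were fitted over all samples with limma 3.58.1 (R 4.3.3; trended moderation, 53 residual degrees of freedom), and two-sided p-values were adjusted by Benjamini-Hochberg over all tested genes, threshold 0.05. All groups share 1 estimate of the spread, since groups of 2 or 3 give a poor one. The number of genes called depends on this choice, as given with the knockout counts. On simulated data, 64% of shifts of 1 log2 unit and 97% of shifts of 2 were called in the adult microglia comparison, with 10 false calls among 17076 genes. The number of arrays limits the precision. Named were all members, up to 4 called genes per pathway list and comparison with the smallest adjusted p, the 3 genes most like each member, Irf8, Xist and Eif2s3y, and marker genes beside a result. Libraries singled out by their own values (adult kidney F4/80high wild-type replicate 1, E14 kidney CD11bhigh knockout replicate 3) were chosen after these were seen. The members and lists were chosen with earlier results of these data known. Motifs were searched on both strands with Python 3.11.15, in the part of each RefSeq promoter before the start. Tables and figures used pandas 2.3.3 and matplotlib 3.10.9. Replicate numbers were checked for pairing: same-numbered samples of the groups compared had deviations correlated by -0.176 to 0.386, and 0 of 26 comparisons met the criterion, so no block was used. Titles number the gates of an organ alike. Xist, a sex-linked RNA, read 9.71, 5.76 and 9.21 in wild-type E14 Kupffer cells and 9.71, 5.92 and 8.82 in the same-numbered liver CD11bhigh samples. In the E14 knockout it read 9.71, 9.15 and 3.16 in microglia, 9.24, 8.72 and 3.14 in Kupffer cells and 9.40, 9.29 and 3.21 in liver CD11bhigh macrophages. Gates, and organs too, may thus come from the same embryos. In wild-type E14 kidney, title number 3 differed, at 3.28 in CD11bhigh and 6.01 in F4/80high macrophages. A block on the title number was therefore added after seeing the data, as was a fit with values below the floor set to it. Where labels repeat a replicate number, numbers follow accession order.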

Additional observations from a re-analysis of the deposited data

Results flagged for a closer look

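The effect of the knockout differed between E14 and the adult in 14 of 45 pairs of gene and population, by a test of the difference itself (limma interaction contrast). Each value is the adult effect minus the E14 effect in log2 units. For Trem1 it was 1.72 in microglia, -1.68 in Kupffer cells and -4.07 in kidney CD11bhigh macrophages, and for Trem3 -2.72 in the last of these. For Trem2 it was 2.62 in Kupffer cells and 2.00 in liver CD11bhigh macrophages. For Cd300a it was -1.45 in liver CD11bhigh macrophages. For Cd300lb it was 2.25 in kidney F4/80high macrophages, -1.31 in liver and -1.44 in kidney CD11bhigh macrophages. For Cd300ld it was 1.55 in microglia. For Cd300lf it was 1.60 in microglia and -2.05 in kidney CD11bhigh macrophages. For Tyrobp it was -0.54 in liver CD11bhigh macrophages. At least 1 of the 15 neutrophil markers was higher in the knockout at each age in all 5 populations. Of all tested genes, 0.591% to 13.2% were called higher in these comparisons, so 1 marker of 15 lies within the background shares. The part of these markers in the differences was not tested. In adult Kupffer cells sex and genotype cannot be told apart.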

How the results depend on the processing

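Of the 50 called pairs of gene and population in the knockout comparisons, 32 passed under every setting tried and 18 were lost under at least 1, and 0 changed sign. The count of members lower in adult knockouts was 6, and 3 with array weights or 2 when the fit held just the compared groups. The count in A1 and A2 was 4, and 7 with array weights. The cause was not tested. When 1 sample was left out, the counts ranged from 14 to 18 (higher, adult), 4 to 7 (lower, adult), 14 to 20 (higher, E14), 4 to 5 (lower, E14), 4 to 5 (A1 and A2), 13 to 16 (adult against E14 effects), 20 to 23 (age), 15 to 18 (gates) and 22 to 24 (yolk-sac steps). With the replicate number as a block, the counts were 17, 6, 18, 5, 4, 14, 23, 18 and 24 in that order. With the title number as a block in the gates and the step from A1 to A2, 1 call was lost. With values below the floor set to it, the counts were 17, 6, 18, 5, 4, 18, 21, 17 and 23, and 4 called values were lost. Neither scaling choice (median centring or quantile normalization), nor the floor (none, or the upper quartile), nor testing each probe singly, nor dropping the variance trend, nor either array run of the repeated sample moved a count by over 1.5 times. Over all comparisons, called values lost were 14 when the fit held just the compared groups, 6 with quantile normalization, 5 each with median centring, no floor or array weights, and 3 with no variance trend. The F-test over wild-type groups was not run on those groups alone. Genes near the floor of 3.041 have compressed changes, and Tyrobp lies near the top of the scale.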
